A study of Mus musculus with 8 samples.

Results

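The genes described are the Wnt pathway genes on a mouse expression array, taken by symbol as all Wnt ligands, Frizzled (Fzd), Ror and Lrp5/Lrp6 receptors, secreted Sfrp and Dkk inhibitors, Ctnnb1, Axin1, Axin2, Tcf7l1, Tcf7l2 and Lef1. They comprise 48 genes on 49 probesets, out of 35512 probesets in the table and 21789 with a single gene symbol. They were taken by name, with earlier results of these data known. Tcf7 is not analysed here. The cells were live EGFP+ cells sorted from the substantia nigra pars compacta (SNc) and the ventral tegmental area (VTA) of C57Bl/6 pups aged P1-P4. The SNc KO and VTA KO groups are Pitx3-/-;Th-EGFP+/-, the SNc WT and VTA WT groups are Pitx3+/+;Th-EGFP+/-, and each group has 2 arrays. All 4 groups carry the Th-EGFP transgene, in which regulatory sequence of tyrosine hydroxylase drives EGFP, and the cells were sorted for its fluorescence. The purity of the sort was not measured on these arrays. Each sample pooled stored batches of sorted cells. Whether the 2 pools of a group were from different animals is not stated, so the p-values measure only the spread between samples, and that spread may be technical. By the study's account, the Pitx3-dependent SNc neurons are already gone at birth in Pitx3-/- pups, so SNc KO holds the EGFP+ cells that remain. SNc WT is a mix of mostly Pitx3-positive and some Pitx3-negative neurons. In VTA, the neurons that would express Pitx3 are by the same account still intact at birth. The knockout comparisons in SNc and VTA are thus unlike, since the one in SNc includes a loss of cells.

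Wnt proteins are secreted ligands that bind Frizzled receptors together with the co-receptors Lrp5 and Lrp6. In the canonical branch this stops a complex built on Axin from marking beta-catenin (Ctnnb1) for destruction, and beta-catenin then joins Tcf and Lef factors on DNA. Other branches run through Frizzled and Ror receptors without beta-catenin. In the mouse ventral midbrain, Wnt1 and Wnt5a are known for their roles in the making of dopaminergic neurons, and Tcf7l2 is known as a marker of thalamus, habenula and pretectum.

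The dopaminergic identity of the samples was measured with 13 markers, all over the signal minimum used here, a linear signal of 60 (5.91 on the log2 scale). Th stood between 10.01 and 10.34 on the 8 arrays. The summed linear signal of the 13 was lower in the KO groups, at 7528 to 8308 in SNc KO, 9786 to 10502 in SNc WT, 7563 to 7850 in VTA KO and 8604 to 8838 in VTA WT. The dopamine receptor gene Drd2 had a log2 knockout difference of -0.98 in SNc (adjusted p 0.038 by limma) and -0.44 in VTA (0.25), and the dopamine transporter gene Slc6a3 had -0.98 (0.077) in SNc and -0.90 (0.176) in VTA. Of the 13 markers, 9 were below 0 for the knockout in SNc and 7 in VTA. The Pitx3 probeset read 7.87 and 7.94 in SNc KO, 7.72 and 7.63 in SNc WT, 8.08 and 7.92 in VTA KO, and 8.10 and 7.84 in VTA WT, so it was not lower in either KO group. Which part of Pitx3 is deleted and which part is probed is not known here, so this probeset does not check the labels. Array medians lay between 6.11 and 6.24. Markers of other cells were not even across the groups. The summed linear signal of 18 ciliated-cell markers was 1547 to 1556 in SNc KO, 1405 to 1520 in SNc WT, 2440 to 4388 in VTA KO and 5312 to 6581 in VTA WT. That of 12 pericyte and smooth muscle markers was 2023 to 2224 in SNc KO, 940 to 1029 in SNc WT, 763 to 2594 in VTA KO and 2075 to 2732 in VTA WT. The 2 VTA KO arrays stood apart from each other, with Rgs5, a pericyte marker, at 10.29 on replicate 1 and 6.22 on replicate 2.

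Of the 49 probesets, 32 reached the signal minimum in at least 1 group and were tested, and 23 reached it in all 4 groups. The 17 others stayed under it in every group. They were the ligands Wnt1, Wnt2, Wnt3, Wnt3a, Wnt6, Wnt8a, Wnt8b and Wnt11 with 1 of the 2 Wnt4 probesets, the receptors Fzd2, Fzd4, Fzd5, Fzd8, Fzd10 and Ror1, and the inhibitors Dkk4 and Sfrp5. Wnt1, the ligand of the early midbrain, lay between 3.82 and 4.23 on all arrays. The tested probesets were 11 ligands, 8 receptors, 6 inhibitors, 3 nuclear factors, 3 cytoplasmic regulators and Fzd10os, a transcript from the strand opposite Fzd10 that matches by name and is not a receptor. The group means of a tested member spanned a median of 0.33 on the log2 scale, and Tcf7l2 had the widest span, 2.22. SNc WT was the lowest of the 4 groups for 18 of the 32 and the highest for 3. SNc KO was the highest for 11 and VTA WT for another 11. These counts are on the deposited scale, and the matching shares over all tested probesets were not counted.

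Tcf7l2, one of the DNA-binding partners of beta-catenin, was the member that differed between the regions. Its log2 signal was 9.62 and 9.74 in SNc KO, 9.15 and 9.27 in SNc WT, 8.15 and 7.74 in VTA KO, and 7.55 and 7.38 in VTA WT. All 4 SNc arrays were above all 4 VTA arrays, and within each region both KO arrays were above both WT arrays. SNc WT exceeded VTA WT by 1.75 on the log2 scale (SE 0.16, 95% interval 1.36 to 2.14), a fold of 3.36, with an adjusted p of 0.0165 by limma. SNc KO exceeded VTA KO by 1.73 (SE 0.16, 95% interval 1.35 to 2.12), a fold of 3.33, with an adjusted p of 0.0402. Tcf7l2 was the single member called at an adjusted p under 0.05 in each of these comparisons, in which 0.439% and 0.149% of all 22112 tested probesets were called. It was also the single member called in the test of any difference among the 4 groups (adjusted p 0.0177), where the share over all probesets was 0.737%. The size of the difference moved little when single arrays were left out, from 1.66 to 1.83 between the WT groups and from 1.53 to 1.94 between the KO groups, but with fewer arrays the call was mostly lost. Between the WT groups it remained only without VTA KO replicate 1 (adjusted p 0.00828) or replicate 2 (0.00826) and reached up to 0.143 without another array, and between the KO groups it remained only without VTA KO replicate 2 (0.0244) and reached up to 0.200. The call between the KO groups was also lost with no signal filter (adjusted p 0.0778), with array weights (0.152) and with only the 4 arrays compared in the fit (0.274). Under these 3 settings the call between the WT groups held, with adjusted p of 0.0341, 0.00461 and 0.0251.

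The knockout comparisons of Tcf7l2 were smaller and alike in the 2 regions. SNc KO was above SNc WT by 0.47 (SE 0.16, 95% interval 0.08 to 0.86, adjusted p 0.490 by limma), and VTA KO was above VTA WT by 0.48 (SE 0.16, 95% interval 0.09 to 0.87, adjusted p 0.386). Neither was called. The knockout effect in SNc minus that in VTA was -0.01, with a 95% interval of -0.56 to 0.54 and an adjusted p of 0.994, so these arrays do not resolve a difference inside that interval. The summed signal of 7 GABAergic markers was also higher in both KO groups, at 1439 to 1558 in SNc KO, 999 to 1080 in SNc WT, 1326 to 1528 in VTA KO and 1041 to 1046 in VTA WT. Of the 5 tested, all 5 were above 0 for the knockout in SNc (median 0.24). In VTA, 3 were above 0 and 2 below (median 0.14). Slc32a1, the vesicular GABA transporter, had knockout differences of 0.94 in SNc (adjusted p 0.0727 by limma) and 0.73 in VTA (0.185), and Gad2, which makes GABA, had 0.44 (0.514) and 0.56 (0.318). Gad1, the other enzyme that makes GABA, differed more by region, by 0.95 between the WT groups (0.112) and 1.04 between the KO groups (0.144). The remaining tested markers Tal1 and Gata2 differed by at most 0.36 in the 4 comparisons, none of the 5 tested was called, and Gata3 and Sox14 were under the signal minimum in every group. Their part in the Tcf7l2 differences was not tested. In such bulk samples, fewer cells of a type and less RNA per cell cannot be told apart.

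**Figure D1:**
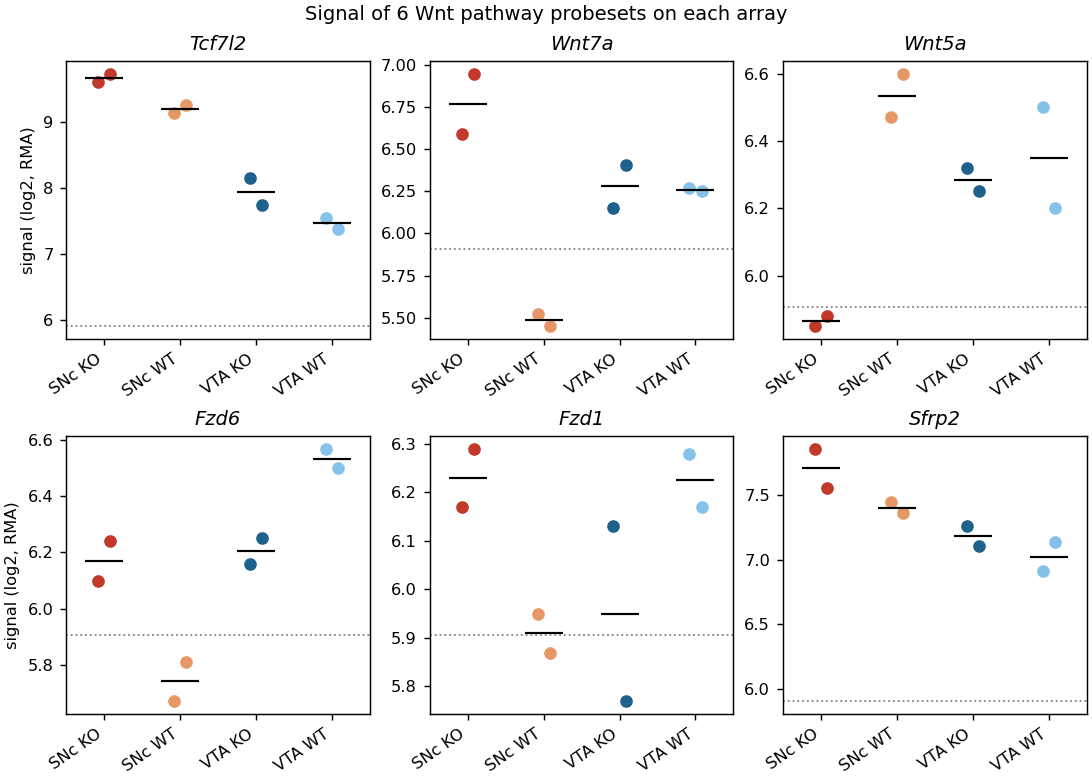
Signal (log2, RMA) of Tcf7l2, Wnt7a, Wnt5a, Fzd6, Fzd1 and Sfrp2 on each of the 8 arrays, in order SNc KO, SNc WT, VTA KO and VTA WT. Points are arrays, black lines are group means, the dotted line is a linear signal of 60, and each panel has its own vertical range. Tcf7l2 is high on all SNc arrays (9.15 to 9.74), while Wnt7a and Fzd6 are lowest in SNc WT.

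The other nuclear factors differed less from group to group. Lef1, which also binds DNA with beta-catenin, read 5.92 and 5.76 in SNc KO, 5.66 and 5.74 in SNc WT, 6.23 and 5.97 in VTA KO, and 5.93 and 6.24 in VTA WT. It lay near the signal minimum, and SNc WT minus VTA WT was -0.38 (adjusted p 0.256 by limma). Tcf7l1, known mainly as a repressor among the Tcf factors, lay between 5.89 and 6.30 on all arrays, with differences of -0.20 between the WT regions and -0.18 between the KO regions. Both of these had means opposite in direction to Tcf7l2 across regions, and neither was called.

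Markers of nearby thalamic, pretectal, red nucleus and oculomotor neurons were read on the same arrays. Of 9 thalamic and pretectal markers, 7 were over the signal minimum, and Gbx2 and Irx1 were under it in every group. Lhx9, a transcription factor of thalamus and pretectum, read 7.56 and 7.30 in SNc KO, 6.24 and 6.47 in SNc WT, 6.03 and 6.05 in VTA KO, and 5.93 and 6.00 in VTA WT. SNc KO was above VTA KO by 1.39 (adjusted p 0.0402 by limma) and above SNc WT by 1.07 (adjusted p 0.0727), while the WT regions differed by 0.40 (adjusted p 0.206). Slc17a6, the vesicular glutamate transporter VGLUT2, read 10.04 and 9.96 in SNc KO, 9.06 and 8.78 in SNc WT, 10.12 and 9.94 in VTA KO, and 9.68 and 9.90 in VTA WT, with SNc WT the lowest group. Prox1, a homeodomain factor, read 6.92 and 6.61 in SNc KO, 6.40 and 7.29 in SNc WT, 6.06 and 5.57 in VTA KO, and 5.58 and 5.48 in VTA WT. As for Tcf7l2, all SNc arrays were above all VTA arrays, by 1.31 between the WT groups (adjusted p 0.124) and 0.95 between the KO groups (adjusted p 0.222). Lhx2, a LIM homeodomain factor, read 6.69 and 6.95 in SNc KO, 6.45 and 6.54 in SNc WT, 6.41 and 6.50 in VTA KO, and 6.22 and 6.15 in VTA WT. Its group means had the order of those of Tcf7l2, with 0.31 between the WT regions (adjusted p 0.263) and 0.36 between the KO regions (adjusted p 0.234). Rora, Irx2 and Irx3 had 0.19, -0.11 and -0.36 between the WT regions and 0.11, -0.16 and -0.20 between the KO regions. Of the 7, 4 were above 0 in each of these region comparisons, and Lhx9 between the KO regions was the only call. The summed signal of the list was 1705 to 1842 in SNc KO, 1160 to 1190 in SNc WT, 1537 to 1709 in VTA KO and 1411 to 1539 in VTA WT. The sum is linear, so Slc17a6 weighed more in it than Lhx9, Prox1 or Lhx2. Which cells gave the Slc17a6 signal was not measured. Of 5 red nucleus and oculomotor markers read here, Isl1 was the only one tested. Pou4f1, Phox2a, Tbx20 and Chat were under the minimum in every group. Isl1, a LIM homeodomain factor of motor and other neurons, read 8.53 and 8.01 in SNc KO, 7.86 and 7.78 in SNc WT, 6.50 and 5.93 in VTA KO, and 6.49 and 6.19 in VTA WT. Like Tcf7l2 it was higher on all SNc arrays than on all VTA arrays, by 1.48 between the WT groups (adjusted p 0.0743) and 2.06 between the KO groups (adjusted p 0.0602), neither of them called. Their part in the Tcf7l2 difference was not tested. The ciliated-cell signal given above was lower in SNc than in VTA, and its part was not tested either.

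**Figure D2:**
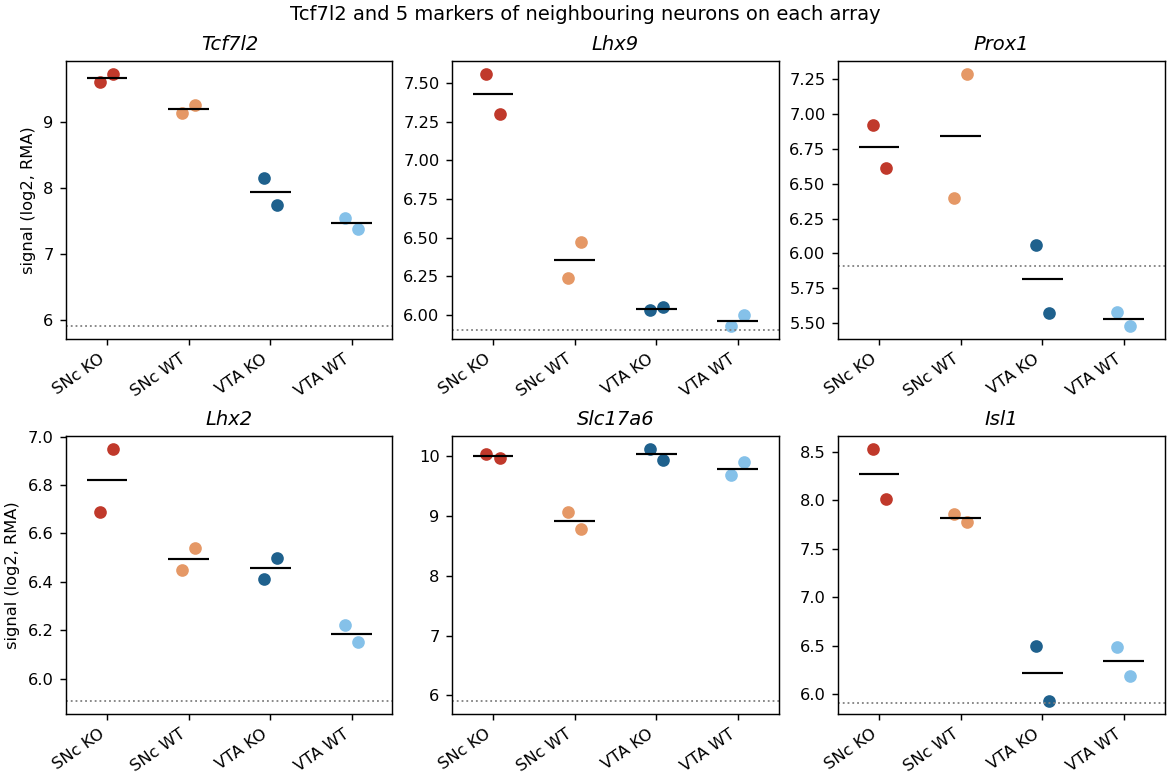
Signal (log2, RMA) of Tcf7l2 and 5 listed markers on each of the 8 arrays, drawn as in the plot of 6 members. Lhx9, Prox1, Lhx2 and Slc17a6 are from the thalamic and pretectal list. Isl1 is the only tested marker of the red nucleus and oculomotor list. Rora, Irx2 and Irx3 were tested too and are not drawn, and Irx2 and Irx3 had lower means in SNc than in VTA. Tcf7l2, Isl1 and Prox1 separate the SNc arrays from the VTA arrays, Lhx9 is highest in SNc KO (7.30 and 7.56), and Slc17a6 is lowest in SNc WT (8.78 and 9.06).

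The probesets most like Tcf7l2 in pattern were found by Pearson correlation over the 8 arrays among 14634 tested probesets outside the members. These arrays fall in 2 regions, so any gene that separates the regions scores high, and the values are given as a description. The closest were Pde4b, a cAMP phosphodiesterase (r = 0.992), the RNA-binding protein gene Rbm6 (0.992), Cnrip1, which encodes a protein that binds the cannabinoid receptor (0.986), the neurofilament heavy chain Nefh (0.979) and Ppp1r16b, a regulatory subunit of protein phosphatase (0.976). The most opposite were 2210409E12Rik (-0.986), the DNA repair gene Xrcc3 (-0.984), Rfx1, a transcription factor of the RFX family (-0.981), the chemokine receptor Cxcr4 (-0.976) and Spaca9 (-0.976). Between the WT regions the 5 closest differed by 0.29 (Ppp1r16b) to 0.70 (Pde4b), and the 5 most opposite by -0.21 (Rfx1) to -1.07 (Cxcr4). Among the members, Sfrp2 ran most nearly in parallel (r = 0.883) and Ror2 most nearly opposite (-0.942).

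The promoters of the 2 members with the widest spans are shown because both factors named by the design and the pathway, Pitx3 and the Tcf factors, bind short DNA motifs. Each sequence is from RefSeq (GRCm38.p6), runs 5′ to 3′ on the strand of the gene and covers 300 bases, from upstream to just past a transcription start. Capitals mark the Pitx core TAATCC or its reverse complement GGATTA. The Tcf/Lef core was searched too, as the letters CTTTGA on both strands, and these were not found in the 3 windows. Other forms of that core were not searched, so the Tcf/Lef counts below cover this form only.
Tcf7l2, upstream start, chr19:55741560-55741859, plus strand: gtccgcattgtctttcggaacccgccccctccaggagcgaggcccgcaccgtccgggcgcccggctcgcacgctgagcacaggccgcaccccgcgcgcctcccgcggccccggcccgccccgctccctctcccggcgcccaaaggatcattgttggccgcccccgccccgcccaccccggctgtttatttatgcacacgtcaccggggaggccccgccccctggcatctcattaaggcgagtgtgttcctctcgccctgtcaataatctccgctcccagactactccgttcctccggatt
Tcf7l2, internal start, chr19:55895071-55895370, plus strand: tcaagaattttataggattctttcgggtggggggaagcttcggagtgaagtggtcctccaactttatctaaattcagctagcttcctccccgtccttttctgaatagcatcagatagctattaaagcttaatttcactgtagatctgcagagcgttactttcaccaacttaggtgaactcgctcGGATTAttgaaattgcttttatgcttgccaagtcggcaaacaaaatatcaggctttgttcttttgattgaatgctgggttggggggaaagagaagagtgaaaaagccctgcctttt
Wnt7a, chr6:91411304-91411603, minus strand: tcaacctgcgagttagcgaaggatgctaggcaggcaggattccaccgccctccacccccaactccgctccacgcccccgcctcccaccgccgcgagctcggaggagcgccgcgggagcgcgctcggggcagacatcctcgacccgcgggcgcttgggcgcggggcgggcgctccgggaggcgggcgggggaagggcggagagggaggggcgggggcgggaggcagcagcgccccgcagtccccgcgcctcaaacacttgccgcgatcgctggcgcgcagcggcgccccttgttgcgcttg
The internal Tcf7l2 start holds 1 Pitx core, and the other windows hold none. Over all 32851 promoters of the table, 7.06% hold the Pitx core and 16.0% hold the Tcf/Lef core. For the Wnt members, 32 of 48 genes matched with 40 promoters, of which 4 held the Pitx core (Fzd1, Sfrp2, Tcf7l2 and Wnt11) and 6 held the Tcf/Lef core (Dkk1, Fzd1, Lef1, Ror1, Wnt5b and Wnt11). A match is only a stretch of letters.

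Among the ligands, Wnt7a and Wnt5a had the largest differences between SNc KO and SNc WT, and they ran in opposite directions. Wnt7a, a ligand known in brain for vessel growth and synapse formation, read 6.59 and 6.95 in SNc KO, 5.52 and 5.45 in SNc WT, 6.15 and 6.41 in VTA KO, and 6.27 and 6.25 in VTA WT. SNc WT stood below all the other groups and its mean of 5.49 was under the signal minimum, so the fold against it is uncertain. SNc KO exceeded SNc WT by 1.29 (SE 0.16, 95% interval 0.91 to 1.67), a fold of 2.44, with an adjusted p of 0.0704 by limma, which is above the threshold. With array weights, which give noisier arrays less say, the adjusted p was 0.0262. In VTA the knockout difference was 0.03 (95% interval -0.35 to 0.40), and the difference between the 2 knockout effects was 1.26 (SE 0.22, adjusted p 0.264). SNc WT minus VTA WT was -0.77 (adjusted p 0.102), and SNc KO minus VTA KO was 0.49 (adjusted p 0.214).

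Wnt5a, a ligand best known for the branches without beta-catenin, read 5.85 and 5.88 in SNc KO, 6.47 and 6.60 in SNc WT, 6.32 and 6.25 in VTA KO, and 6.50 and 6.20 in VTA WT. Here SNc KO was the low group, with a mean of 5.86 just under the signal minimum. SNc KO minus SNc WT was -0.67 (SE 0.13, 95% interval -0.99 to -0.35), a fold of 0.628, with an adjusted p of 0.203 by limma. In VTA the difference was -0.06 (95% interval -0.38 to 0.26), and the difference between the effects was -0.61 (adjusted p 0.433). Wnt4, a ligand of kidney and other epithelia that is also made in brain, read 7.47 and 7.23 in SNc KO, 7.25 and 7.47 in SNc WT, 7.57 and 7.46 in VTA KO, and 7.61 and 7.74 in VTA WT on the probeset that was tested. Its knockout difference was -0.01 in SNc (95% interval -0.34 to 0.32), and SNc WT minus VTA WT was -0.32 (adjusted p 0.281). The second Wnt4 probeset lay between 5.40 and 5.73 on all arrays.

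The 8 other tested ligands (Wnt2b, Wnt5b, Wnt7b, Wnt9a, Wnt9b, Wnt10a, Wnt10b and Wnt16) differed by at most 0.35 in any of the 4 group comparisons. Of the 11 tested ligands, 10 had a lower mean in SNc WT than in the VTA WT group, as did 10842 of all 22112 tested probesets. The median was -0.29 over the ligands against 0.01 over all tested probesets. The 10 stayed below 0 after median subtraction, which moved the median over all probesets to 0.11 and that of the ligands to -0.18, and after quantile normalization, where the medians were 0.01 and -0.17. Of all tested probesets, 7869 were below 0 after median subtraction and 10751 after quantile normalization. Between SNc KO and VTA KO, 7 of the 11 were below 0, with a median of -0.08. Wnt5a was the tested ligand above 0 between the WT regions. The 9 ligand probesets under the signal minimum in every group also had lower means in SNc WT than in VTA WT. Among them, Wnt1 had 3.99 against 4.10 and Wnt8b had 5.54 against 5.87. Array medians were 6.13 and 6.11 in SNc WT and 6.22 and 6.23 in VTA WT. The part of a shift in low signals between these arrays was not tested.

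The receptors were flatter, with Fzd6 as the exception. Fzd6, a Frizzled linked to planar polarity, read 6.10 and 6.24 in SNc KO, 5.67 and 5.81 in SNc WT, 6.16 and 6.25 in VTA KO, and 6.57 and 6.50 in VTA WT. SNc WT was the lowest and VTA WT the highest group, with no overlap, and the SNc WT mean of 5.74 was under the signal minimum. SNc WT minus VTA WT was -0.80 (SE 0.11, 95% interval -1.07 to -0.53), a fold of 0.576, with an adjusted p of 0.0521 by limma. It passed the threshold without VTA KO replicate 1 or replicate 2, with an adjusted p as low as 0.0371, and with array weights (0.0173). The KO regions differed by -0.04 (95% interval -0.31 to 0.23). The knockout difference was 0.43 in SNc (adjusted p 0.341) and -0.33 in VTA (adjusted p 0.400), and the difference between these effects was 0.76 (SE 0.16, 95% interval 0.38 to 1.14, adjusted p 0.339).

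Fzd1, a Frizzled of the canonical branch, had the same signs for the knockout. It read 6.17 and 6.29 in SNc KO, 5.95 and 5.87 in SNc WT, 6.13 and 5.77 in VTA KO, and 6.28 and 6.17 in VTA WT. Its knockout difference was 0.32 in SNc and -0.27 in VTA, and the difference between them was 0.59 (SE 0.21, adjusted p 0.473 by limma). Fzd3, a Frizzled of axon guidance, was level, at 9.38 and 9.08 in SNc KO, 9.04 and 9.11 in SNc WT, 9.26 and 9.13 in VTA KO, and 9.17 and 9.32 in VTA WT, with a knockout difference of 0.16 in SNc (95% interval -0.18 to 0.49). The co-receptors Lrp5 and Lrp6, the non-canonical receptor Ror2, and Fzd7 and Fzd9 differed by at most 0.29 in any of the 4 group comparisons. Of the 8 tested receptors, 7 had a lower mean in SNc WT than in the VTA WT group on the deposited scale and after quantile normalization, and 5 did after median subtraction. Of all 22112 tested probesets, 10842, 10751 and 7869 did, in that order.

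The low SNc WT levels of Wnt7a and Fzd6 went with a low signal of pericyte and smooth muscle markers. All 11 tested markers of that list were higher in SNc KO than in SNc WT (median 0.57), and all 11 were below 0 in SNc WT minus VTA WT (median -0.47), and 1 of the 12, Des, was under the minimum in every group. Both counts of 11 held with the array median subtracted and after quantile normalization. None of the 11 was called. Markers of several other cells ran alike, with none called. In SNc KO against SNc WT, 8 of 9 oligodendrocyte lineage, 7 of 9 astrocyte, 4 of 4 endothelial and 5 of 7 dividing-cell markers were higher. In SNc WT minus VTA WT, 8 of 9, 8 of 9, 4 of 4 and 7 of 7 were below 0. Of 3 tested microglia and macrophage markers, 1 was higher and 1 below 0, in both cases Cx3cr1 (0.18 and -0.04, not called). Mrc1 ran the other way and was called by limma in both comparisons. Its knockout difference in SNc was -1.4 (adjusted p 0.038), and its difference between the WT regions was 1.26 (adjusted p 0.0263). Tyrobp had the signs of Mrc1 (-0.51 and 0.39) and was not called. The part of these cells in the Wnt7a and Fzd6 differences was not tested. In VTA KO the array with Rgs5 at 6.22 had Wnt7a at 6.41 and Fzd6 at 6.25, and the array with Rgs5 at 10.29 had Wnt7a at 6.15 and Fzd6 at 6.16.

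Secreted inhibitors, which bind Wnts (Sfrp) or block Lrp co-receptors (Dkk1, Dkk2, Dkk4), had no called member. Sfrp2 read 7.86 and 7.56 in SNc KO, 7.45 and 7.36 in SNc WT, 7.26 and 7.11 in VTA KO, and 6.91 and 7.14 in VTA WT. The 4 groups were ordered as for Tcf7l2, and KO and WT overlapped in VTA. SNc KO minus VTA KO was 0.52 (SE 0.15, adjusted p 0.196 by limma) and SNc WT minus VTA WT was 0.38 (SE 0.15, adjusted p 0.247). Sfrp1 read 6.24 and 6.13 in SNc KO and stood at or under 5.97 on the other 6 arrays, with 0.57 between SNc KO and VTA KO (adjusted p 0.227) and 0.41 between SNc KO and SNc WT (adjusted p 0.644). Its means in SNc WT, VTA KO and VTA WT (5.78, 5.62 and 5.71) were under the signal minimum. Sfrp1 was thus tested through SNc KO alone, and the folds against the other groups are uncertain. Dkk2 and Dkk3, the second of which is not known as a clear Wnt inhibitor, were higher in SNc KO than in SNc WT by 0.39 and 0.31, while the differences were -0.06 for Dkk1 and -0.13 for Sfrp4, none of them called. Dkk1 was tested through VTA WT alone (mean 5.92). Its means in SNc KO and SNc WT (5.60 and 5.66) were under the signal minimum, so its difference there is uncertain.

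No cytoplasmic member was called. Ctnnb1, which encodes beta-catenin, read 9.02 and 8.90 in SNc KO, 8.78 and 8.86 in SNc WT, 8.94 and 8.90 in VTA KO, and 8.80 and 8.94 in VTA WT. Its 95% intervals ran from -0.12 to 0.40 for the knockout in SNc and from -0.31 to 0.21 between the WT regions. Axin1, the scaffold of the destruction complex, lay between 7.22 and 7.59. Axin2, a scaffold that is itself a known target of the canonical branch, read 6.59 and 6.74 in SNc KO, 6.17 and 6.53 in SNc WT, 6.75 and 6.67 in VTA KO, and 6.72 and 6.47 in VTA WT. It did not follow the order of Tcf7l2, and its difference between the WT regions was -0.25 (95% interval -0.63 to 0.14). Levels of mRNA do not measure protein or signalling.

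**Figure D3:**
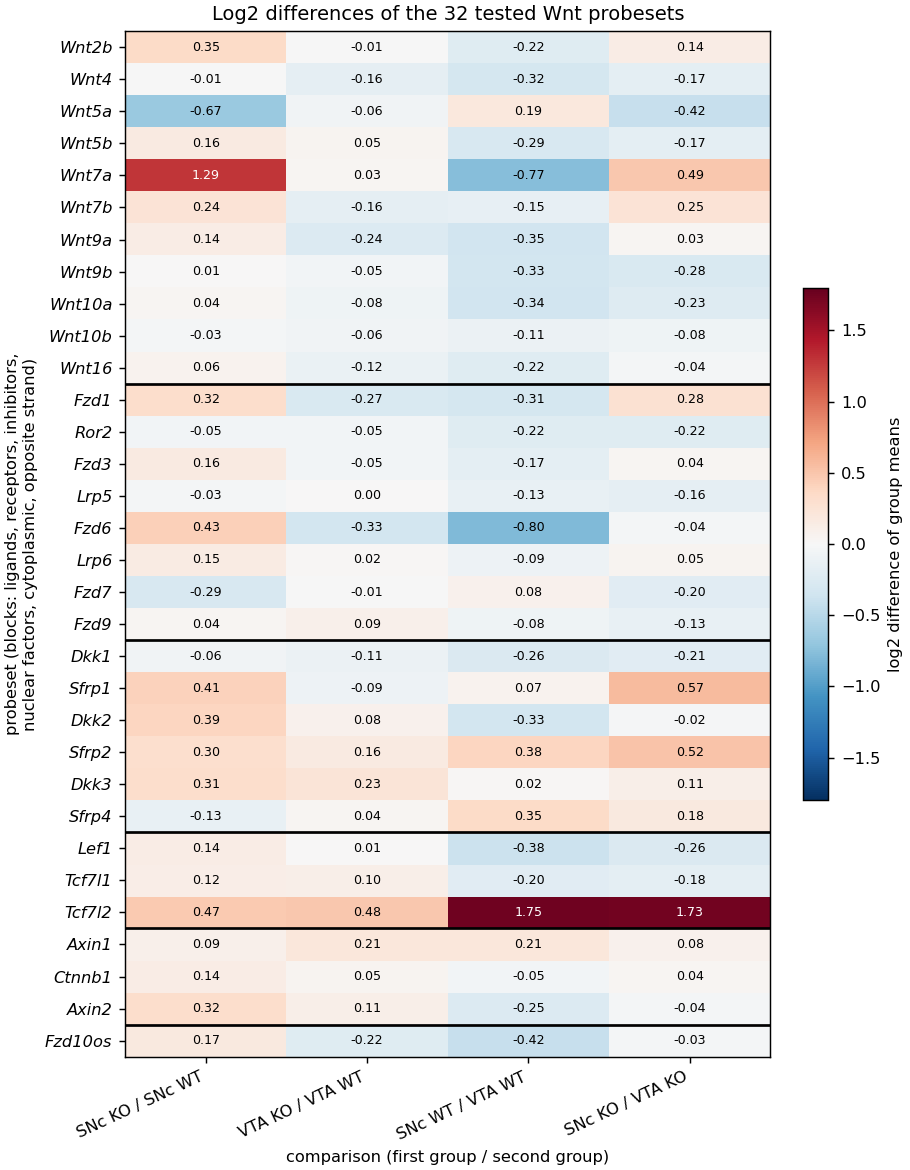
Log2 differences of group means for the 32 tested probesets in 4 comparisons, with the first-named group of each column above 0 in red and below 0 in blue. Horizontal lines part ligands, receptors, inhibitors, nuclear factors, cytoplasmic members and Fzd10os. Tcf7l2 has the 2 darkest cells (1.75 and 1.73), followed by Wnt7a in SNc KO over SNc WT (1.29).

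Counted over all members, the comparison of SNc KO with SNc WT had 0 members at an adjusted p under 0.05, where 0.149% of all tested probesets were called by limma. At an unadjusted p under 0.05, 5 members passed, 4 of them higher (Wnt2b, Wnt7a, Fzd6 and Tcf7l2) and 1 lower (Wnt5a), or 15.6% of the 32, against 8.62% of all tested probesets. A second rule joined an unadjusted p up to 0.05 with a fold of 1.5 or more and a linear signal of 60 or more in a group compared. It called Wnt7a and Wnt5a, where 3.6% of all probesets passed. The 2 groups did not overlap in 17 members with SNc KO higher and 3 with SNc KO lower, against 24% and 20% of all tested probesets. The median difference was 0.14 over the members and 0.01 over all tested probesets.

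VTA KO against VTA WT gave less. No member was called, where 0.00904% of all probesets were, and 1 was higher (Tcf7l2) and 1 lower (Fzd6) at an unadjusted p under 0.05, which is 6.25% against 10.2% of all probesets. None passed the second rule, against 4.35%. The groups did not overlap in 4 members with VTA KO higher and 7 with VTA KO lower, against 17.5% and 20.7%, and the median difference was -0.01. For the difference between the knockout effects, no member was called by limma's adjusted p, and neither was any other probeset (0%). At an unadjusted p under 0.05 there were 4 members (Wnt7a, Fzd6 and Fzd1 above 0, Wnt5a below), 12.5% against 9.89% of all probesets, and the same 4 passed the second rule, where 6.74% of all probesets did.

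**Figure D4:**
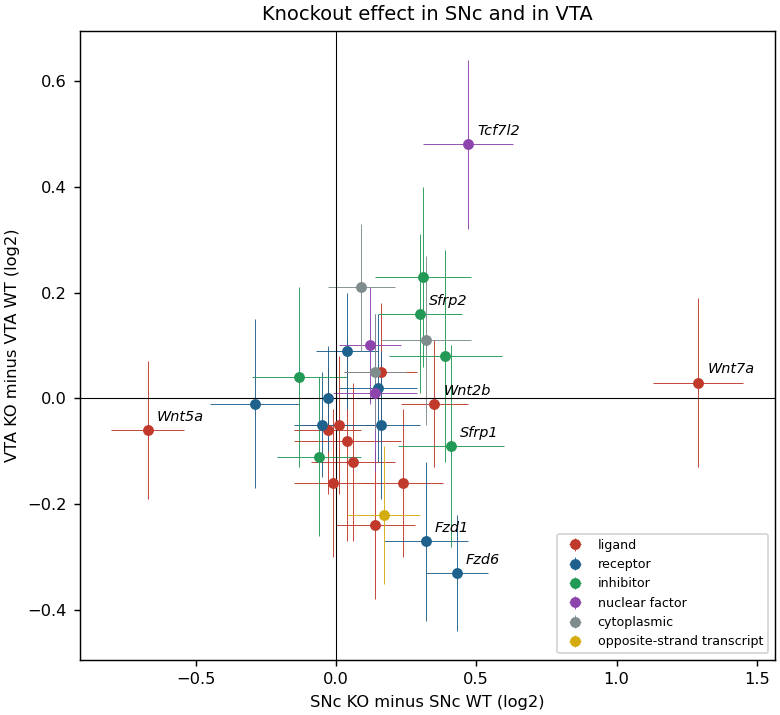
Knockout difference in VTA (vertical axis, VTA KO minus VTA WT, log2) against that in SNc (horizontal axis, SNc KO minus SNc WT, log2) for the 32 tested probesets, coloured by role, with bars of 1 standard error. Tcf7l2 stands apart at 0.47 and 0.48, Wnt7a at 1.29 and 0.03, and Fzd6 and Fzd1 lie in the quadrant of opposite signs.

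Between the regions, SNc WT against VTA WT had 2 members higher (Tcf7l2 and Sfrp2) and 6 lower (Wnt7a, Wnt9a, Wnt9b, Fzd6, Lef1 and Fzd10os) at an unadjusted p under 0.05, or 25% against 18.8% of all tested probesets. The second rule passed Tcf7l2, Wnt7a and Fzd6, where 6.62% of all probesets passed. The groups did not overlap in 4 members with SNc WT higher, against 29.6% of all probesets, and in 19 with SNc WT lower, against 28.7%. The median difference was -0.21 over the members on the deposited scale, -0.10 after median subtraction and -0.12 after quantile normalization, where all tested probesets had medians of 0.01, 0.11 and 0.01. SNc KO against VTA KO had 4 members higher (Tcf7l2, Wnt7a, Sfrp1 and Sfrp2) and 1 lower (Wnt5a) at an unadjusted p under 0.05, 15.6% against 17.5% of all probesets, and Tcf7l2 alone passed the second rule, where 6.96% passed. Sfrp1 reached the signal minimum in SNc KO alone. The groups did not overlap in 7 members with SNc KO higher and 9 with SNc KO lower, against 26.8% and 21.8%. The median over the members there was -0.04.

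Other genes of the pathway were read from a list of 72, of which 62 were tested and 0 were called at an adjusted p under 0.05 by limma in any of the 4 comparisons. At an unadjusted p under 0.05, SNc KO against SNc WT had 5 higher and 2 lower (11.3%, against 8.62% of all tested probesets), and VTA KO against VTA WT had 0 and 4 (6.45%, against 10.2%). SNc WT against VTA WT had 10 and 8 (29.0%, against 18.8%), and SNc KO against VTA KO had 12 and 1 (21.0%, against 17.5%). The shares of all probesets with an adjusted p under 0.05 in these comparisons were 0.149%, 0.00904%, 0.439% and 0.149%. Lgr4, a receptor for R-spondins that raises Wnt signalling, read 6.65 and 6.60 in SNc KO, 7.21 and 7.44 in SNc WT, 6.26 and 6.18 in VTA KO, and 6.28 and 6.55 in VTA WT. It was highest in SNc WT, by 0.91 over VTA WT (adjusted p 0.0612), and SNc KO minus SNc WT was -0.70 (adjusted p 0.200). Wls, the carrier that brings Wnts to the cell surface, read 6.89 and 6.65 in SNc KO, 6.77 and 6.53 in SNc WT, 7.18 and 6.80 in VTA KO, and 8.17 and 7.56 in VTA WT. Its SNc WT minus VTA WT difference was -1.22 (adjusted p 0.0953) and VTA KO minus VTA WT was -0.88 (adjusted p 0.306), and the ciliated-cell signal, also highest in VTA WT, moved with it. The part of those cells was not tested.

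Of 14 listed feedback and target genes, 11 were tested and none was called. In SNc WT minus VTA WT, 4 were above 0 and 7 below (median -0.27). The knockout difference was above 0 for 7 and below for 4 in SNc (median 0.11). In VTA it was above 0 for 2 and below for 9 (median -0.22). Of all 22112 tested probesets, 10842, 10445 and 12008 were below 0 in these comparisons. Single target genes differed in their order of groups. Myc read 7.61 and 7.77 in SNc KO, 8.27 and 8.63 in SNc WT, 7.11 and 7.40 in VTA KO, and 7.63 and 7.73 in VTA WT, with SNc WT the highest group. The cyclin gene Ccnd2 read 7.37 and 6.99 in SNc KO, 6.57 and 6.69 in SNc WT, 7.44 and 7.06 in VTA KO, and 7.55 and 7.57 in VTA WT, with SNc WT the lowest. SNc WT minus VTA WT was 0.77 for Myc (adjusted p 0.110 by limma) and -0.93 for Ccnd2 (adjusted p 0.0904). Of the 15 genes of the destruction complex and its transducers, 13 had a higher mean in SNc WT than in VTA WT (median 0.23), among them the kinase genes Gsk3b (0.41, adjusted p 0.157) and Csnk1e (0.55, adjusted p 0.107), and none was called. The count was 13 of 15 with the array median subtracted (median 0.34) and 11 of 15 after quantile normalization (median 0.12). Of all 22112 tested probesets, 11270 were above 0 as deposited, 14243 with the median subtracted and 11358 after quantile normalization. In the same comparison all 10 general neuron markers were above 0 (median 0.20) and all 18 ciliated-cell markers were below 0 (median -1.77), and their part was not tested.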

How the data were processed

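The samples were hybridised to 8 Affymetrix Mouse Gene 1.0 ST arrays, 2 for each group. The authors purified RNA from pooled sorted cells, amplified it linearly and summarised probes with RMA, and the deposited values are log2 expression values. No version or array genome build was stated in the sources read. Precision rests on 2 arrays per group, with a between-array standard deviation of 0.252 in SNc KO, 0.242 in SNc WT, 0.376 in VTA KO and 0.241 in VTA WT.

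Symbols came from the platform annotation (21789 probesets with 1 symbol, 1621 with several, 12102 with none). The tests used limma 3.58.1 (R 4.3.3) and modelled the 4 group means over all 8 arrays, with 4 residual and 2.4 prior degrees of freedom. They took in 22112 probesets, those whose mean in any group reached a linear signal of 60. P-values were Benjamini-Hochberg adjusted over these within each comparison, and an adjusted p under 0.05 was called. The second rule takes its thresholds from the methods, with limma's p in place of the LPE algorithm that the methods name, which was not run. The fit was tested on simulated data. The members and gene lists were chosen with earlier results of these data known. Members given with values on every array were Tcf7l2, those called by either rule, and the one of highest mean in each role, with others added after their values were seen. Alternatives were the signal filter, the arrays fitted, a replicate block, array scaling, a variance trend, array weights and leaving out each array. Same-numbered arrays did not deviate together (r = 0.00577 to 0.098 over pairs of groups), so the numbers were not used as pairs. Promoters were searched with Python 3.11.15.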

Additional observations from a re-analysis of the deposited data

Results flagged for a closer look

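These results are listed because every array of the first-named group moved one way in 1 contrast and the opposite way in the matching contrast. The share of all tested probesets that meet this rule was not counted. In a single contrast, 17.5% to 29.6% of them did not overlap in a given direction. That rule is no test of the difference, and the difference between the knockout effects, which tests it, was called for none of these genes by limma (adjusted p at least 0.264). For Wnt7a the contrasts were between regions, with SNc WT minus VTA WT at -0.77 and SNc KO minus VTA KO at 0.49, and the knockout effects differed by 1.26 (adjusted p 0.264). Fzd6 had knockout differences of 0.43 in SNc and -0.33 in VTA (0.76 apart, adjusted p 0.339). Fzd1 had 0.32 in SNc and -0.27 in VTA (0.59 apart, adjusted p 0.473), and its region differences were -0.31 between the WT groups and 0.28 between the KO groups.

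Wnt7b had knockout differences of 0.24 in SNc and -0.16 in VTA, and region differences of -0.15 between the WT groups and 0.25 between the KO groups (0.40 apart, adjusted p 0.557 by limma). Wnt9a had knockout differences of 0.14 in SNc and -0.24 in VTA (0.38 apart, adjusted p 0.584). Fzd10os had 0.17 in SNc and -0.22 in VTA (0.38 apart, adjusted p 0.560). These contrasts share arrays, so a single pair of arrays can set more than 1 of the signs.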

How the results depend on the processing

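Of 666 recomputed differences of the named members, 621 kept their direction and their side of the threshold, 17 lost the call (all Tcf7l2 between regions), 5 gained it and 23 changed sign. The call of Tcf7l2 between SNc KO and VTA KO was lost (0 members called) with no signal filter (adjusted p 0.0778 by limma), with the 4 arrays of the groups compared alone (0.274) and with array weights (0.152). Array weights added Wnt7a in SNc KO against SNc WT (1 member called) and Fzd6 and Wnt7a in SNc WT against VTA WT (3 called), and gave 2 called among the 4 groups. The second rule called 2 members in SNc KO against SNc WT, 3 in SNc WT against VTA WT and 4 for the difference between the knockout effects. The causes were not tested.

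With a replicate block the Tcf7l2 difference of 1.73 between SNc KO and VTA KO was not called (adjusted p 0.0958 by limma, 0 members called), and that of 1.75 between SNc WT and VTA WT was (0.0413). The block changed no other call of the named members.

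Leaving out 1 array at a time, the count ranged from 0 to 2 in SNc WT against VTA WT, from 0 to 1 in SNc KO against VTA KO and from 0 to 2 among the 4 groups, with fewer samples in each fit.

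Signs changed only for small differences. Quantile normalization gave -0.0671 for Fzd3, 0.0382 for Fzd6 and -0.0805 for Ctnnb1 in SNc KO against VTA KO, and median subtraction gave 0.0376 for Fzd6 there and 0.0569 for Ctnnb1 in SNc WT against VTA WT. With 1 array left out, SNc KO minus VTA KO ranged from -0.11 to 0.18 for Fzd3, from -0.106 to 0.0324 for Fzd6 and from -0.0195 to 0.0942 for Ctnnb1. Ctnnb1 ranged from -0.12 to 0.0223 in SNc WT minus VTA WT and from -0.0167 to 0.126 in VTA KO minus VTA WT. VTA KO minus VTA WT ranged from -0.127 to 0.0255 for Fzd3, from -0.103 to 0.155 for Wnt7a and from -0.212 to 0.0876 for Wnt5a. SNc KO minus SNc WT ranged from -0.13 to 0.11 for Wnt4. The difference between the knockout effects ranged from -0.22 to 0.19 for Tcf7l2 and from -0.00597 to 0.29 for Sfrp2. With 2 arrays per group, and means near a linear signal of 60 for most members, small differences could not be resolved.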
